A study of Mus musculus with 6 samples.

Results

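The calpain system of the mouse lung was followed through 10 of the 49568 genes in the table: the calpain large subunits Capn1, Capn2, Capn5, Capn6, Capn7, Capn10, Capn11 and Capn15, the small subunit Capns1 and the inhibitor calpastatin, Cast. Capn11 was chosen by its normalized counts in these libraries, which differed between the genotypes, and the other 9 for belonging to the same protease system, with the values of this comparison already known. The differences between genotypes are therefore given for these genes as descriptions, with no p-value. How many of them passed a threshold is stated as a count from which nothing is read. All 10 genes had a row, and all 10 passed the filter for testing (10 or more normalized counts in 3 or more libraries), which Capn11 passed through the wildtype libraries alone.

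RNA came from the right lung lobes of mice killed at 6 weeks, whose lung vessels had been flushed with cold saline. One group was C57BL/6 wildtype and the other was Col6a1-/-, listed under the same strain, with 6 animals each. RNA of 2 animals of 1 genotype was pooled for each library, and each animal entered 1 pool, so there were 3 pools per genotype. The labels gave neither the sex of the animals nor how the Col6a1 allele was made.

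Calpains are cysteine proteases of the cytosol that cut their substrates at few sites, so that a substrate is altered rather than degraded. Calcium switches on the classical calpains, which are dimers of a large catalytic subunit (Capn1 or Capn2) with the small subunit Capns1. Calpastatin binds and blocks these calcium-loaded dimers. Talin, filamin and spectrin, which tie the cell membrane to the actin skeleton, are among the textbook substrates, so calpains are studied in cell adhesion, migration and membrane repair. Capn11 is a large subunit of the classical type that is known mainly from the testis.

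The coding sequence around the catalytic cysteine shows what the large subunits share and which one departs from it. Each stretch below is from the longest complete coding sequence in GENCODE M21 (GRCm38), 5′ to 3′, and the capitals mark the codon that aligns with the catalytic cysteine codon of Capn1.
Capn1: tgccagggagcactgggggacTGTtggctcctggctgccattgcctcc
Capn2: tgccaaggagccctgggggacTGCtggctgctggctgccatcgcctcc
Capn11: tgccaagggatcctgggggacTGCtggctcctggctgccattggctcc
Capn5: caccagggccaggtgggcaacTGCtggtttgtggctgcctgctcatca
Capn10: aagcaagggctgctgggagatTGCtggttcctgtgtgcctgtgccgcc
Capn15: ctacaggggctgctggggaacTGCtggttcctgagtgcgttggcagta
Capn7: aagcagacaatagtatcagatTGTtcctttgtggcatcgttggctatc
Capn6: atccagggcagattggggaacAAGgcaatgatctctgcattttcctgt
Capn11 has the cysteine codon TGC at codon 115 of 714, and Capn1 has TGT at codon 115 of 713. Capn6 has AAG, a lysine codon, at codon 81 of 641, so it lacks the catalytic cysteine. Over the aligned coding sequence Capn11 was identical to Capn1 at 62.0% of bases, to Capn2 at 59.9% and to Capn3, the muscle calpain, at 58.6%, and to Capn7 at 41.0%. No stretch of 50 bases in the 2 annotated Capn11 transcripts occurred in a transcript of any other gene on either strand.

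Capn11 (ENSMUSG00000058626.16) lies on chromosome 17, 45630204 to 45659325, minus strand, GRCm38, and no other annotated gene overlaps it. The window around its start, from 250 bases before to 50 after, is that of the RefSeq table on GRCm38.p6 (chr17:45659260-45659559, minus strand). It is shown 5′ to 3′, with each CG dinucleotide in capitals, because Capn11 was the gene chosen for its difference.
Capn11 promoter: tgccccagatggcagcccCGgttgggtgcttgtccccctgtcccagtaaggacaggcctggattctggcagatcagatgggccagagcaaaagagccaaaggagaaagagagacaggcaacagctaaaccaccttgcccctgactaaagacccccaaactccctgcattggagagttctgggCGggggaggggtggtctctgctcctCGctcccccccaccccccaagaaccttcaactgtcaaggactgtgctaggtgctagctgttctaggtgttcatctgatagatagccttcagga
It held 3 CG dinucleotides, and 31.4% of the 32851 promoter windows in that table held as few or fewer. The windows of Capn2, Capn7 and Capn10 held 27, 25 and 21, those of Capn1 15 and 14, and that of Capns1 14. That of Capn6 held 5, those of Capn15 25, 22 and 3, and those of Cast 3, 11, 10 and 2. A count this low was therefore not particular to Capn11. Methylation and factor binding were not measured here.

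Col6a1, the targeted gene, had normalized counts of 19907.2, 18393.2 and 22330.5 in wildtype against 10034.4, 10615.8 and 9343.8 in Col6a1-/- lungs, so its transcripts were lowered and not absent (limma adjusted p 0.00643). Each library held between 28055414 and 37904878 reads in genes. All 16 lung marker genes were present. Of these, 14 had estimates below 0 (median log2 fold change -0.13). Without overlap 5 were lower and 2 higher, beside 14.2% and 10.7% of all tested genes. Limma and edgeR called none of them, 6 had an unadjusted p under 0.05, beside 20.3% of all tested genes, and DESeq2 called 3, beside 5.06%. These were the endothelial genes Cdh5 and Pecam1 and the macrophage receptor Marco, at 78.6%, 81.5% and 73.9% of wildtype. In whole lung, fewer cells of a type and less RNA per cell cannot be told apart.

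Capn11 transcripts were close to absent from the Col6a1-/- lungs and low but steady in the wildtype lungs. The normalized count, which is the number of reads in the gene divided by the library's size factor, was 45.7, 52.7 and 59.1 in the wildtype libraries, in the order of replicates 1, 2 and 3, which holds throughout. It was 0.802, 3.28 and 1.00 in the Col6a1-/- libraries. Every wildtype library was above every Col6a1-/- library, with a wide gap between them. The means were 52.5 ± 6.68 and 1.69 ± 1.38 (SD, n = 3 pools each). In whole reads Capn11 had 44, 48 and 61 in the wildtype libraries and 1, 3 and 1 in the Col6a1-/- libraries.

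The exact 95% Poisson intervals, which cover counting error only, were 33.2 to 61.3, 38.9 to 69.9 and 45.2 to 75.9 normalized counts in the wildtype libraries. In the Col6a1-/- libraries they were 0.0203 to 4.47, 0.676 to 9.59 and 0.0253 to 5.57. The wildtype libraries varied by 12.7% of their mean (coefficient of variation), where counting alone gives 14.0%. On the log2(normalized count + 1) scale Capn11 differed by -4.42 (SE 0.42, limma), a scale that understates the change of a gene with so few reads. The authors' deposited table listed -1.32 for Capn11 and gave it no adjusted p. DESeq2 on the whole reads gave -5.04 here. For the other calpain genes described, the deposited values were also smaller in size (Capn6 -0.29 against -0.39). The scales are therefore unlike, and how the deposited one was formed is not described.

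**Figure D1:**
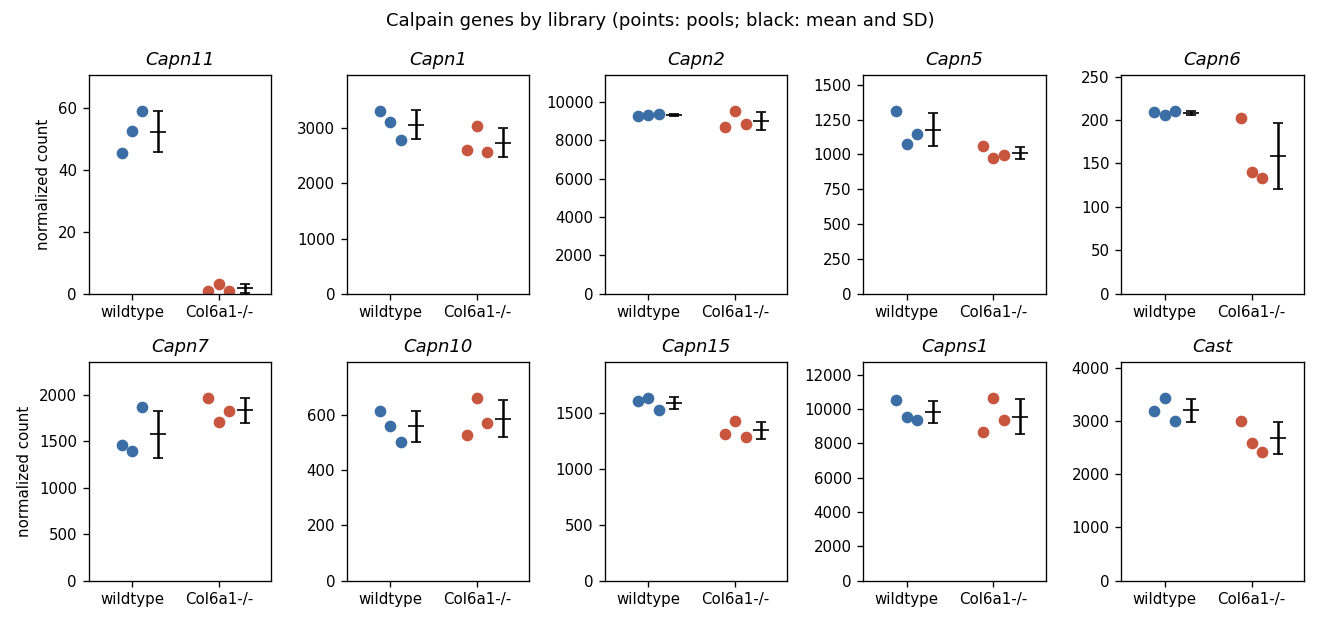
Normalized counts of the 10 calpain genes in each library, with the y axis starting at 0, wildtype pools in blue and Col6a1-/- pools in red, and black bars for the mean and SD of 3 pools. Capn11 stands between 45.7 and 59.1 in wildtype and between 0.802 and 3.28 in Col6a1-/- pools, and the means of the other 9 genes lie between 76.1% and 116% of wildtype.

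The pools differed in the sex of their animals, and the Y-linked level went partly with the genotype. The averaged Y-linked level (Ddx3y, Eif2s3y, Kdm5d and Uty) was 0.347%, 3.35% and 51.5% of the highest library in the wildtype pools and 72.5%, 100% and 51.1% in the Col6a1-/- pools. Xist, the X-inactivation RNA of female cells, was 28.4 normalized counts in Col6a1-/- replicate 2 and between 10486.5 and 16430.4 in the other 5 libraries. Wildtype replicate 3 and Col6a1-/- replicates 1 and 3 held RNA of both sexes. No wildtype pool was above 51.5% and no Col6a1-/- pool below 51.1%, so the genotypes met only in the middle of this range. In the 3 pools of both sexes Capn11 had 61 reads in the 1 wildtype pool and 2 in the Col6a1-/- pools together, or 1.51% of wildtype after scaling, against 3.01% over all 6 pools. With the Y-linked level as a covariate the log2 fold change was -5.15, and Capn11 was no longer called. That fit called 0 of the 16879 tested genes, Col6a1 included, so the lost call was not particular to Capn11.

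**Figure D2:**
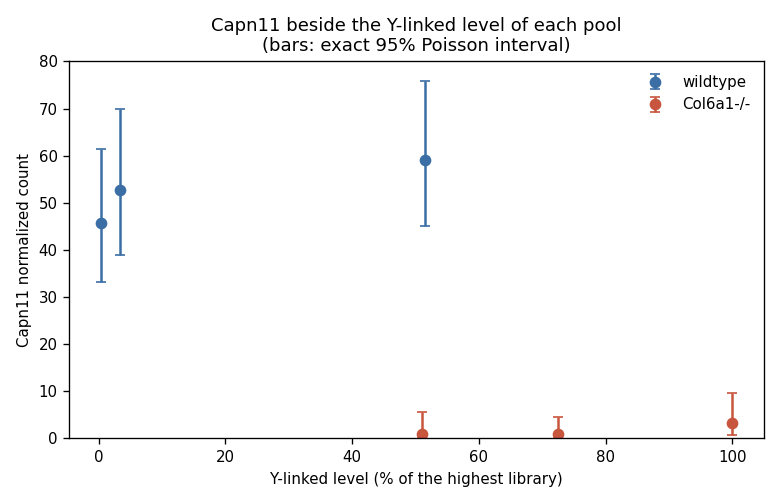
Capn11 normalized count of each pool (y axis, with the exact 95% Poisson interval) against the mean level of 4 Y-linked genes as a percentage of the highest library (x axis). At a like Y-linked level of 51.5% and 51.1%, wildtype replicate 3 stands at 59.1 and Col6a1-/- replicate 3 at 1.00.

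Of the 10 genes, Capn11 was the one that passed the limma threshold (adjusted p of 0.05 over all tested genes), beside 0.0652% of all 16879 tested genes called in either direction and 0.0474% called lower. Since Capn11 was chosen for this difference, nothing follows from that count. In the authors' deposited table none of the other 9 was under 0.05, beside 5.05% of all genes with an adjusted p there. For 4 of the 10 every Col6a1-/- library was below every wildtype library (Capn5, Capn6, Capn11 and Capn15), beside 14.2% of all tested genes, and for none was it the reverse, beside 10.7%. The fold change estimates were below 0 for 8 of the 10, with a median of -0.19, against 8159 of 16879 and a median of 0.0098 over all tested genes. Capn11 entered these counts and the median through its choice, and the other 9 were chosen with their values known. Nothing is therefore read from these counts or the median either.

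Among the calpain genes described, transcripts of the classical subunits Capns1, Capn2 and Capn1 had the highest levels per length in both genotypes. Protein, dimers and protease activity were not measured. Levels of different genes are compared as normalized counts per kilobase of exon, over the union of the annotated exons. The small subunit Capns1 had the highest level, 3962.9 ± 256 in wildtype and 3856.9 ± 405 in Col6a1-/- lungs (SD, n = 3 each), above 98.6% of tested genes in wildtype. Capn2, the large subunit of m-calpain, was at 1470.5 ± 8.46 and 1418.6 ± 70.2, and Capn1, the large subunit of mu-calpain, at 917 ± 78.5 and 818 ± 79.0. The non-classical Capn7, Capn15, Capn5 and Capn10 followed in wildtype with means of 321, 278, 215 and 129, of which Capn7 and Capn15 were within their SDs of each other.

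Capn6 (26.7 ± 0.318) and Capn11 (19.4 ± 2.47) were lowest in wildtype lungs, and Capn11 stood above 15.8% of tested genes. Capn11 reached 0.626 ± 0.509 in Col6a1-/- lungs. As a share of the summed per-length level of the 8 large subunits, Capn2 held 43.6% ± 1.08 in wildtype and 44.5% ± 0.630 in Col6a1-/- lungs, Capn1 27.1% ± 1.91 and 25.6% ± 1.27, and Capn11 0.575% ± 0.0830 and 0.0192% ± 0.0147. With the length of the longest transcript in place of the exon union, the wildtype shares of Capn2, Capn1 and Capn11 were 57.2%, 19.8% and 0.401%, and Capn2 still held the highest share.

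**Figure D3:**
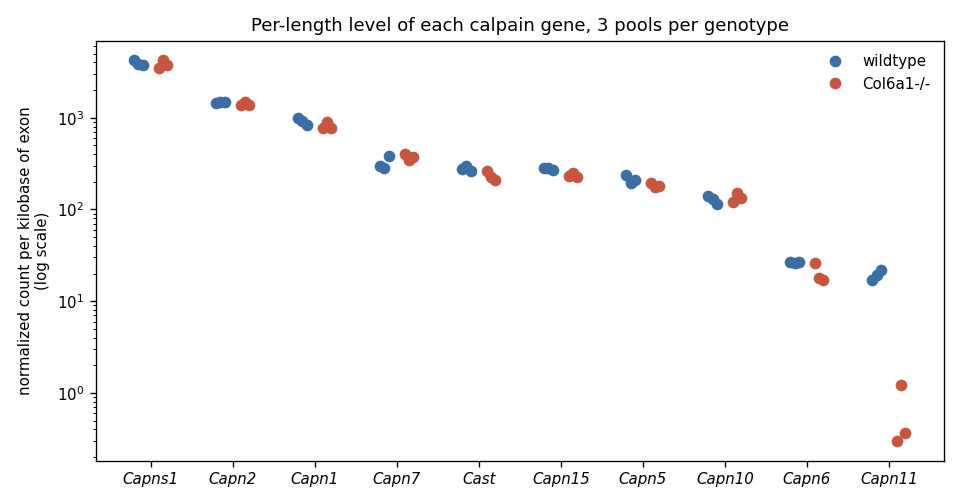
Normalized count per kilobase of exon (y axis, log scale) of each gene in the 3 pools of each genotype, ordered by the wildtype mean. Capns1, Capn2 and Capn1 lead at wildtype means of 3962.9, 1470.5 and 917, and Capn11 is at most 1.21 in the Col6a1-/- pools.

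The classical subunits differed little between the genotypes. Capn2 (chromosome 1) had normalized counts of 9277.0, 9330.0 and 9384.3 in wildtype against 8664.5, 9506.0 and 8832.0 in Col6a1-/- pools (log2 fold change -0.05, SE 0.08). Its highest library was Col6a1-/- replicate 2, so the genotypes overlapped. Capns1 (chromosome 7), which pairs with both large subunits, had 10539.8, 9557.2 and 9351.4 in wildtype against 8646.9, 10631.1 and 9382.8 in Col6a1-/- lungs (log2 fold change -0.04, SE 0.10). The highest and the lowest of its 6 values were both Col6a1-/- libraries.

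Capn1 (chromosome 19) had normalized counts of 3304.5, 3106.7 and 2784.4 in wildtype against 2600.9, 3040.7 and 2567.1 in Col6a1-/- lungs (log2 fold change -0.16, SE 0.10). Col6a1-/- replicate 2 lay within the wildtype range. Per length, Capns1 was 1.66 ± 0.0681 times the sum of Capn1 and Capn2 in wildtype and 1.72 ± 0.0819 times in Col6a1-/- lungs (SD, n = 3 each), and the ratio of Capn1 to Capn2 was 0.624 ± 0.0569 and 0.576 ± 0.0283. Both ratios overlapped between the genotypes. Of the distinct 50-base stretches in Capn2 transcripts, 23.5% also occurred in the predicted gene Gm37885, so its reads may be split in the authors' counting. The same limit holds for Capn10, with 13.4% shared with 9430060I03Rik, for Cast, with 10.5% shared with 640 other genes together, and for Capn1, with 6.19%.

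Cast, the inhibitor, stood at 83.4% of wildtype, with an overlap between the genotypes. Its normalized counts (chromosome 13) were 3189.3, 3438.2 and 3002.3 in wildtype against 3011.0, 2596.8 and 2425.2 in Col6a1-/- pools. Col6a1-/- replicate 1 lay just above wildtype replicate 3, and the other Col6a1-/- libraries lay below all wildtype libraries. Cast differed by -0.27 on the log2 scale (SE 0.10), and by -0.15 in the pools of mixed sex alone. Per length, calpastatin was 0.113, 0.125 and 0.113 times the sum of Capn1 and Capn2 in the wildtype libraries and 0.122, 0.0940 and 0.0979 times in the Col6a1-/- libraries. Col6a1-/- replicate 1 was again inside the wildtype range of this ratio.

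Among the non-classical calpains, Capn15, Capn5 and Capn6 were lower without overlap. Capn15 (chromosome 17, 25958364 to 25985796), the relative of the fly gene small optic lobes, had normalized counts of 1606.6, 1636.8 and 1529.7 in wildtype against 1316.1, 1432.3 and 1290.6 in Col6a1-/- lungs, or 84.6% of wildtype (log2 fold change -0.24, SE 0.09). It is on the same chromosome as Capn11, and 13.2% of its 50-base stretches also occurred in D630044L22Rik. Capn5 (chromosome 7), which has a C2 domain at its end in place of the calcium-binding penta-EF-hand, had 1309.6, 1074.7 and 1148.2 against 1058.5, 975 and 993, or 85.7% of wildtype (log2 fold change -0.22, SE 0.10). Wildtype replicate 2 and Col6a1-/- replicate 1 lay close to each other.

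Capn6 (chromosome X), the calpain without the catalytic cysteine that is known for binding microtubules, showed the widest spread of the 3 in Col6a1-/- lungs. Its normalized counts were 209, 205 and 210.1 in wildtype against 202, 140.0 and 133 in Col6a1-/- pools. Col6a1-/- replicate 1 was close to the wildtype libraries and the other 2 were well below them, and the log2 fold change of -0.42 (SE 0.17) was -0.61 without that library and -0.30 without Col6a1-/- replicate 3. The wildtype libraries varied by 1.19% of their mean, less than the 7.04% that counting alone gives. With each library's trend on transcript length and GC content removed, Capn15 and Capn5 were at -0.10 and -0.09, Capn6 at -0.65 and Cast at -0.31.

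Capn7 and Capn10 had estimates above 0 with overlapping libraries. Capn7 (chromosome 14), which acts with the membrane-scission machinery called ESCRT, had normalized counts of 1459.1, 1394.2 and 1864.7 in wildtype against 1962.9, 1702.4 and 1824.4 in Col6a1-/- lungs (log2 fold change 0.23, SE 0.12). Wildtype replicate 3 lay inside the Col6a1-/- range, and the estimate was 0.02 in the pools of mixed sex alone, 0.03 with the Y-linked level as a covariate and 0.36 without wildtype replicate 3. Capn10 (chromosome 1), known as a candidate gene of type 2 diabetes, had 614, 560 and 503 in wildtype against 528, 662 and 573 in Col6a1-/- lungs (log2 fold change 0.07, SE 0.12). Its genotypes overlapped almost fully.

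**Figure D4:**
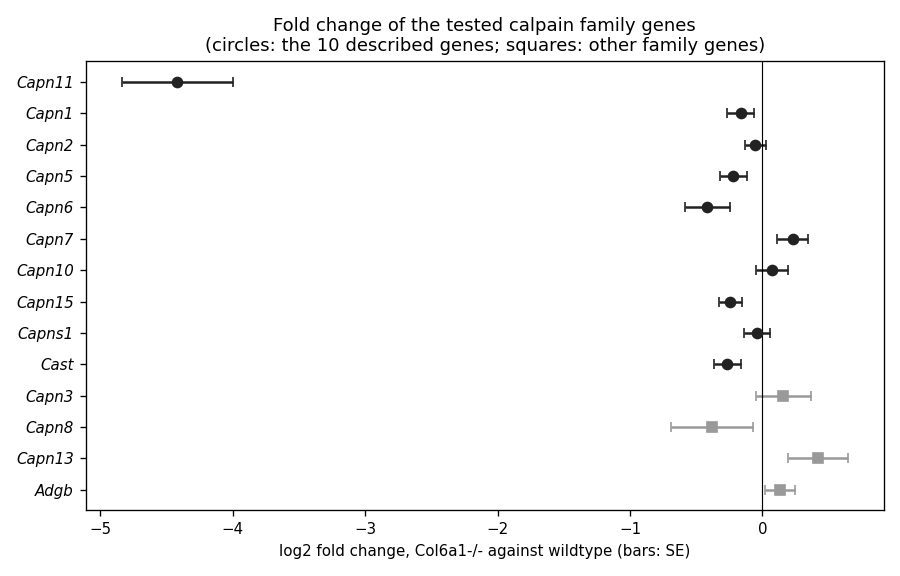
Log2 fold change of Col6a1-/- against wildtype lungs on the log2(normalized count + 1) scale (x axis, bars SE) for the 10 described genes (circles) and the 4 other tested family genes (squares). Capn11 stands at -4.42, and the other 13 lie between -0.42 and 0.42.

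The remaining rows of the family were low in lung, apart from Adgb. Adgb, androglobin, which carries a calpain-like domain, had 418 to 464 normalized counts in wildtype and 425 to 528 in Col6a1-/- lungs. Capn3 had 38.4 to 51.6 and 47.3 to 53.0, Capn8, a calpain of mucous epithelium, 21.3 to 26.0 and 13.0 to 25.1, and Capn13 29.0 to 36.2 and 39.0 to 45.9. These 4 were tested and none passed (limma adjusted p of 0.54, 0.697, 0.505 and 0.313 for Adgb, Capn3, Capn8 and Capn13). Capn13 alone among them was higher in every Col6a1-/- library, at 134% of wildtype (log2 fold change 0.42, SE 0.22). Capn9, Capn12 and Capns2 had at most 8.31 normalized counts in any library and were not tested, and Capn14 was not analysed here.

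Genes that work around the calpains did not pass the test. The 6 lists were penta-EF-hand proteins with Pdcd6ip, calpain substrates, calcium control, membrane repair, cathepsins with cystatins, and caspases. They held 79 tested genes besides the 10 described ones. None was called by limma, 23 had an unadjusted p under 0.05, beside 20.3% of all tested genes, edgeR called none and DESeq2 called 6, beside 5.06% (Ctso, Dysf, Flna, Itpr1, Myof and Tln1). The genotypes did not overlap for 29 of the 79, 20 of them lower and 9 higher, beside 24.9% of all tested genes.

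In the substrate list, 15 of 22 genes had estimates below 0, with a median of -0.17, and 10 were lower without overlap, beside 14.2% of all tested genes. The lung markers Cdh5, Pecam1 and Marco were lower in the same libraries, and their part in these values was not tested. Tln1, talin, had normalized counts of 25702.1, 23950.1 and 22012.0 in wildtype against 18749.4, 19893.2 and 16776.3 in Col6a1-/- lungs (log2 fold change -0.37, SE 0.10, limma adjusted p 0.116). Flna, filamin A, stood at 79.4% of wildtype (log2 fold change -0.33, SE 0.11, limma adjusted p 0.142). Dysf, dysferlin, a membrane repair protein that calpain cleaves, stood at 76.5% (log2 fold change -0.39, SE 0.09, limma adjusted p 0.0942). In the membrane repair list, which shares Dysf and Ahnak with the substrates, 8 of 12 estimates were below 0 (median -0.06). Without overlap 2 were lower and 2 higher, beside 14.2% and 10.7% of all tested genes. Myof, myoferlin, stood at 78.8% of wildtype (limma adjusted p 0.103). Anxa1, annexin A1, stood at 113%, higher in every Col6a1-/- library (limma adjusted p 0.287).

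In the calcium control list, 14 of 19 estimates were below 0, with a median of -0.11. Without overlap 5 were lower and 1 higher, beside 14.2% and 10.7% of all tested genes. By limma 7 had an unadjusted p under 0.05, beside 20.3%, and DESeq2 called 1, Itpr1, beside 5.06%. The calcium channels of the endoplasmic reticulum Itpr1 and Itpr2 stood at 78.6% and 80.7% of wildtype and the plasma membrane calcium pump Atp2b4 at 78.1%, each without overlap and with limma adjusted p of 0.116, 0.118 and 0.12. The penta-EF-hand list, which holds Capns1 itself, its calcium-binding relatives and also Pdcd6ip, had 4 of 6 estimates above 0 (median 0.13). Sri, sorcin, was at 120% and Pdcd6 at 117% of wildtype, with limma adjusted p of 0.149 and 0.229.

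The other cysteine protease systems were also mixed. Among cathepsins and cystatins 8 of 14 estimates were below 0 (median -0.05), with Ctso at 139% of wildtype (limma adjusted p 0.11). Among caspases and their inhibitor Xiap 3 of 10 were below 0 (median 0.09), with Casp12 at 122% of wildtype (limma adjusted p 0.215).

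The genes beside Capn11 differed far less between the genotypes. Tmem63b, an ion channel gene on the same strand whose end lies 846 bases from the start of Capn11, had normalized counts of 4823.9, 4761.1 and 3994.6 in wildtype against 3903.3, 4495.0 and 3693.8 in Col6a1-/- lungs. The genotypes overlapped (log2 fold change -0.17, SE 0.11, limma adjusted p 0.4). On that side Mrpl14, a mitochondrial ribosomal gene, stood at 109% (limma adjusted p 0.573), and 1600014C23Rik had at most 2.19 normalized counts. On the other side Slc29a1, a nucleoside transporter, stood at 90.7% of wildtype (limma adjusted p 0.387). Mymx was not analysed here.

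Hsp90ab1, a cytosolic chaperone gene 56933 bases from Capn11, was lower in every Col6a1-/- library. Its normalized counts were 41868.6, 43306.1 and 40937.5 in wildtype against 31594.9, 31466.8 and 32429.0 in Col6a1-/- lungs (log2 fold change -0.40, SE 0.09, limma adjusted p 0.0942). Within 500 kb on either side 14 genes were tested and limma called none, while 2 had an unadjusted p under 0.05 (20.3% of all tested genes), edgeR called none and DESeq2 called 1, Hsp90ab1 (5.06%). The median of their log2 fold changes was -0.04, and 3 of the 14 were without overlap, all lower, beside 24.9% of all tested genes in either direction.

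**Figure D5:**
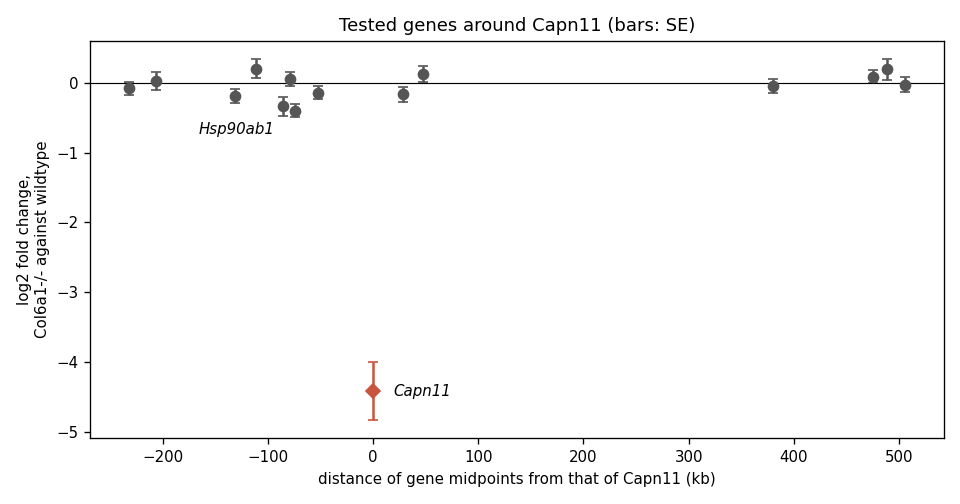
Log2 fold change of Col6a1-/- against wildtype lungs (y axis, bars SE) for Capn11 and the 14 tested genes within 500 kb, by the distance between gene midpoints in kb (x axis). The neighbours lie between -0.40 (Hsp90ab1) and 0.20, and Capn11 at -4.42.

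The genes whose profile over the 6 libraries was most like that of Capn11 were Hsph1, Snrnp35, Tbc1d14, Uvrag and Evi5l. Likeness was Pearson's r of log2(normalized count + 1), over 14223 tested genes with a mean normalized count of at least 20 and no predicted-gene symbol. The r was 0.995, 0.993, 0.991, 0.989 and 0.989 over 6 libraries. All 6 profiles share the gap between the genotypes, which sets most of r. The size of the gap differed widely, since Hsph1, a heat shock protein, stood at 56.8% of wildtype and Snrnp35, Tbc1d14, Uvrag and Evi5l at 86.0%, 91.0%, 89.6% and 86.5%.

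Markers of cells outside the lung, and of cells in which calpains are known, were read beside the calpains. Of 23 germ cell genes, 10 were at 0 in all libraries, among them the sperm chromatin genes Prm1, Prm2, Tnp1 and Tnp2. The summed level of the germ cell list was 82.0 to 120 normalized counts in wildtype and 130 to 151 in Col6a1-/- lungs. All 6 tested germ cell genes had estimates above 0 (median 0.46), and none was called by limma, edgeR or DESeq2. Of the 6, 2 were higher without overlap, beside 10.7% of all tested genes, and 2 had an unadjusted p under 0.05, beside 20.3%. The summed skeletal muscle list, with Myh4 at 0 in all libraries, was 576 to 692 and 679 to 829. No member was called by limma, and 1 of 4 had an unadjusted p under 0.05, beside the same 20.3%.

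Cardiac muscle, fat and red cell markers were higher in every Col6a1-/- library in sum. The cardiac muscle list was 18304.0 to 24423.7 in wildtype and 25017.7 to 26933.6 in Col6a1-/- lungs, the fat list 2725.4 to 6709.8 and 7900.5 to 12942.5, and the red cell list 41775.8 to 47821.3 and 62121.3 to 102392. Limma and edgeR called no member of these 3 lists, with 7 of 10, 7 of 8 and 6 of 7 at an unadjusted p under 0.05, beside 20.3% of all tested genes, and DESeq2 called 4, 2 and 6, beside 5.06%. The motile cilia list, which overlapped at 16679.4 to 21066.2 and 20410.4 to 22096.5, had no member called by any of the 3 tools and none at an unadjusted p under 0.05. The secretory epithelium list was 478610 to 620897 in wildtype and 642960 to 817307 in Col6a1-/- lungs. Of its 9 tested members 1 was called, Clca1, at 22.3% of wildtype (limma adjusted p 0.0215). Clca1 had 1059.3, 1005.6 and 474.4 normalized counts in wildtype, lowest in the wildtype pool of both sexes, against 172.5 to 207.9 in Col6a1-/- lungs. In that list 4 of 9 had an unadjusted p under 0.05, beside 20.3% of all tested genes, and edgeR called 1. DESeq2 called Clca1 and Scgb3a2, beside 5.06%. Scgb3a2, a club cell secretoglobin, stood at 151% of wildtype without overlap (limma adjusted p 0.0809). Estimates were below 0 for 4 of the 9, and 2 were lower and 2 higher without overlap, beside 14.2% and 10.7%. Spdef stood at 68.5%, lower without overlap, and Muc5b at 72.3% with overlap, so the summed level did not hold for every member. The part of these cells in the values of the calpain genes was not tested.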

How the data were processed

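Per the submitters' processing notes, the tools were DESeq2 1.16.1 under R 3.4.1, featureCounts, Subread 1.5.0p3, STAR 2.5.2b and Trimmomatic 0.36, and GRCm38.p5 was listed. Their roles and settings are not described. The sources used here give neither strand setting nor annotation release, so reads of overlapping and antisense genes cannot be told apart. The deposited signal was a normalized count per gene and library. Values in each library (100%, to within 1e-06) were whole reads over 1 size factor, 0.911 to 1.25. For Col6a1-/- replicate 3 this factor was 1.0003, too close to 1 to test the recovery. An unexplained word, New, stands in the column name of wildtype replicate 2. The authors' deposited results table gave a mean and a test statistic (scores), a log2 fold change and p-values.

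Limma-trend (limma 3.58.1, R 4.3.3) was fitted on log2(normalized count + 1) of 16879 genes, of 28476 above 0, with genotype as the single two-sided term, Benjamini-Hochberg adjustment and a threshold of 0.05. It was tested on simulated data, in which the pools did not differ by sex and no gene as low as Capn11 was changed. p-values measure the spread between pools. Alternatives were other pseudocounts and filters, median centring, edgeR 4.0.16 (quasi-likelihood) and DESeq2 1.42.0 on recovered reads, a replicate block, each library left out, the Y-linked level as a covariate, removal of trends on transcript length and GC (splines with 5 degrees of freedom, values for 97.3% of tested genes) and the exon length. The pools of mixed sex alone (Y-linked level of 10% to 90%) were added after seeing the data.

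The members, the lists (also those of lung, cell types and neighbouring tissues) and the tests were chosen with earlier results of these data known. Genes were named by rule: the 10 genes, the rest of the family, Col6a1, the sex-linked genes, the 3 nearest protein-coding genes on each side of Capn11, the 5 most similar genes, and called genes or the leading ones by p of each list. The list entry Dnai1 had no match and was not used here. Positions and lengths came from GENCODE M21. Coding sequences were aligned by their translations (Biopython 1.88), and figures drawn with matplotlib 3.10.9.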

Additional observations from a re-analysis of the deposited data

How the results depend on the processing

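Capn11 kept its direction in all 17 fits that tested it, with log2 fold changes of -5.15 to -3.11; it was not tested at a minimum of 50. The number of called genes, 11 in the limma fit described, was 93 with no filter on low values, 7 at a minimum of 50, 26 with median centring (3 higher, 23 lower), 742 by DESeq2, 0 with the Y-linked level as a covariate (1306 at an unadjusted p under 0.05), 81 with the length and GC trend removed, 341 in the pools of mixed sex alone, and 0 to 1381 with 1 library left out (0 without Col6a1-/- replicate 3, 1381 without wildtype replicate 3). Of the 10 calpain genes, 1 was called in that fit and 0 at a minimum of 50, by DESeq2 (which gave Capn11 no adjusted p) and with the Y-linked covariate, and 0 to 2 with 1 library left out. Without wildtype replicate 3 the 2 were Capn11 and Capn7, and without Col6a1-/- replicate 3 there was none. Of the fixed lists 2 genes were called (Capn11 and Clca1), against 10 with no filter, 1 at a minimum of 50, 23 by DESeq2, 0 with the Y-linked covariate, 5 with the trend removed, 25 in the mixed pools, and 0 to 25 with 1 library left out. The sign turned for Capn2 with the trend removed (0.0077), for Capns1 without wildtype replicate 1 (0.0099) or Col6a1-/- replicate 1 (0.027), and for Capn10 without wildtype replicate 3 (-0.0032) or Col6a1-/- replicate 2 (-0.019). With 1 library left out, Capns1 ranged from -0.12 to 0.027 and Capn10 from -0.019 to 0.14. Pool numbers were shared by name only: deviations of same-numbered pools correlated at -0.14, 0.11 and -0.0059, 2 of 6 libraries correlated best with their own number, and the replicate block gave 7 called genes, 1 of them a calpain. The mixed pools hold 1 wildtype library, assumed to vary like the others. The causes were not tested. Depth limits Capn11 to 1 to 3 reads per Col6a1-/- library.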
